A study of Mus musculus with 23 samples.

Results

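The genes described here are the Ube2 genes of mouse skeletal muscle, which encode ubiquitin-conjugating (E2) enzymes and a few relatives. They were taken as the protein-coding genes whose symbol starts with Ube2 and that reached at least 1 CPM (a count scaled to the library size) in 3 libraries of the deposited count table. Of 37 such genes among the 54446 genes of that table, 33 passed this minimum. Ube2d2b, Ube2dnl1 and Ube2dnl2 had 0 counts in every library, which allows up to 3 counts in each, and Ube2u had 10 counts over all libraries. Nearest to the limit were Ube2ql1, with 4 libraries at 1 CPM or more, and Ube2v1, with 6. Of the 33 genes, 32 also had a row in a second table, and Ube2v1 was not listed there.

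Ubiquitin is joined to proteins in a relay. An E1 enzyme activates it, an E2 enzyme carries it on a cysteine, and an E3 ligase brings the loaded E2 to the substrate, so that the E2 largely sets which kind of chain is built. Chains linked through lysine 48 send proteins to the proteasome, and chains linked through lysine 63 serve mainly in signalling, DNA repair and sorting. In muscle that has lost its nerve this pathway degrades contractile proteins, and Ube2b, also called E2-14k, has long been studied there. A few Ube2 proteins carry a related modifier in place of ubiquitin, Ube2v1 and Ube2v2 lack the active cysteine and work as partners of Ube2n, and Ube2cbp binds an E2 and is not one itself.

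The first set of 9 libraries came from innervated muscle of WT mice, from muscle of WT mice denervated for 10 days and from muscle of PAX4 KO mice denervated for 10 days, with 3 libraries in each group. The second set of 8 libraries was all from muscle denervated for 10 days, with 2 libraries of WT mice (labelled WT con 2 and 3), 3 of NRF1PAL KD mice (NRF1 KD) and 3 of NRF1PAL-PAX4 double KD mice (double KD). The labels do not name the muscle, the age of the mice, or how the knockout and knockdowns were made, nor do they say whether libraries of a group came from separate animals, so the tests rest on library-to-library spread, which may be technical. PAX4 and alpha-PAL, the product of Nrf1 to which the label's suffix points, are transcription factors, and the title of the series concerns the control of proteasome genes by such factors.

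Depth ran from 21716216 to 42821396 counts per library in the first set and from 23740769 to 30165765 reads in the second. All 6 skeletal muscle markers (Ckm, Acta1, Mb, Tnnt3, Myh4 and Des) were present in every group. No read of Pax4 was counted in the first set, which allows up to 3 counts in each library, and Nrf1 stood at 444 to 488 normalised counts in WT con and at 476 to 524 in the libraries labelled NRF1 KD, so neither gene checked the labels. Chrng, the embryonic acetylcholine receptor subunit that rises in denervated muscle, stood at 0.197, 15.9 and 0.105 CPM in innervated libraries 1 to 3, against 84.5 to 155 CPM in denervated WT libraries. Innervated library 2 thus stood apart, and Trim63, a muscle ubiquitin ligase, was at 255 CPM in denervated WT library 1 against 630 and 607 CPM in libraries 2 and 3. In bulk muscle, fewer cells of a type and less RNA per cell cannot be told apart.

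Promoters are shown because alpha-PAL is a DNA-binding factor with a known GC-rich site, and 6 Ube2 promoters hold its letters. No test links the pattern to a change in level: in the libraries labelled NRF1 KD, where Nrf1 mRNA was not lower, Ube2 genes with and without it had median log2 fold changes of -0.16 and -0.12. Windows of 250 bases before to 50 bases after the start site were available from RefSeq (GRCm38.p6) for 26 of the 33 genes. The pattern GCGCANGCG, searched on both strands, was found in the windows of 6 of the 26 genes (23.1%), namely Ube2g1, Ube2j2, Ube2k, Ube2m, Ube2t and Ube2v1, and in 6.2% of the 32851 windows of all genes. The palindromic core CGCATGCG, which can overlap it, occurred in 1 of the 26 (3.8%), that of Ube2k, and in 1.9% of all windows. TGACNNNGC, the core of the antioxidant response element, occurred in 4 of the 26 (15.4%) and in 12.4% of all windows. These shares are not like for like, as 1 window was taken per Ube2 gene and every window of all genes was counted. The windows were not matched for expression or for their content of C and G. The difference between the shares was not tested. A match is a run of letters and not a measured binding site. The stretches around 4 of the matches follow, each written 5′ to 3′ on the strand of the gene, with the matched letters in capitals.
Ube2g1, chr11:72607201-72607260, + strand: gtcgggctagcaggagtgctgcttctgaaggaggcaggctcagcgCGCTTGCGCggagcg
Ube2m, chr7:13038281-13038340, - strand: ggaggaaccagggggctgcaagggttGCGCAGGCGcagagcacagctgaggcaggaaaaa
Ube2v1, chr2:167632006-167632065, - strand: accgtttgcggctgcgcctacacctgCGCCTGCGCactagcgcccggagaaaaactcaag
Ube2k, chr5:65537259-65537288, + strand: tcagcgtggtGCGCATGCGCggacccggcg
The matched letters begin 15 bases before the start site in Ube2g1, 34 before it in Ube2v1, 39 before it in Ube2m and 24 after it in Ube2k. In Ube2k the capitals cover a match on each strand that overlap.

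Levels differed widely between Ube2 genes. The order turns on the exon length used: Ube2d3, a broad chain initiator, was second by CPM in innervated muscle (194 ± 7.98, against 162 ± 10.9 for Ube2r2), but 15th per kilobase because its annotated exons cover 24499 bases. Per kilobase of exon (GENCODE M21 gene models), Ube2b, the RAD6-type E2 that works with the N-end rule ligases, was highest in each group of the first set. It stood at 226 ± 26.5 CPM per kb in innervated WT (SD, n = 3), at 172 ± 12.4 in denervated WT and at 133 ± 16.2 in PAX4 KO muscle. This made up 40.2%, 34.1% and 30.2% of the summed level per kb of the 33 genes. In innervated muscle Ube2r2 followed at 38.6 ± 2.60 CPM per kb, and then Ube2g2 at 31.9 ± 4.19, with Ube2d1 and Ube2m both at 30.5. The ranges of Ube2g2, Ube2d1 and Ube2m overlapped, and only Ube2b and Ube2r2 had all libraries above them. In denervated WT muscle Ube2g2 was second at 59.4 ± 7.84 CPM per kb, Ube2m next at 35.8 ± 2.50, and Ube2r2 had moved to the sixth place at 17.3 ± 1.20, within the range of Ube2l3. The lowest levels per kb in WT muscle were among those of Ube2ql1, Ube2v1, Ube2t and Ube2c.

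**Figure D1:**
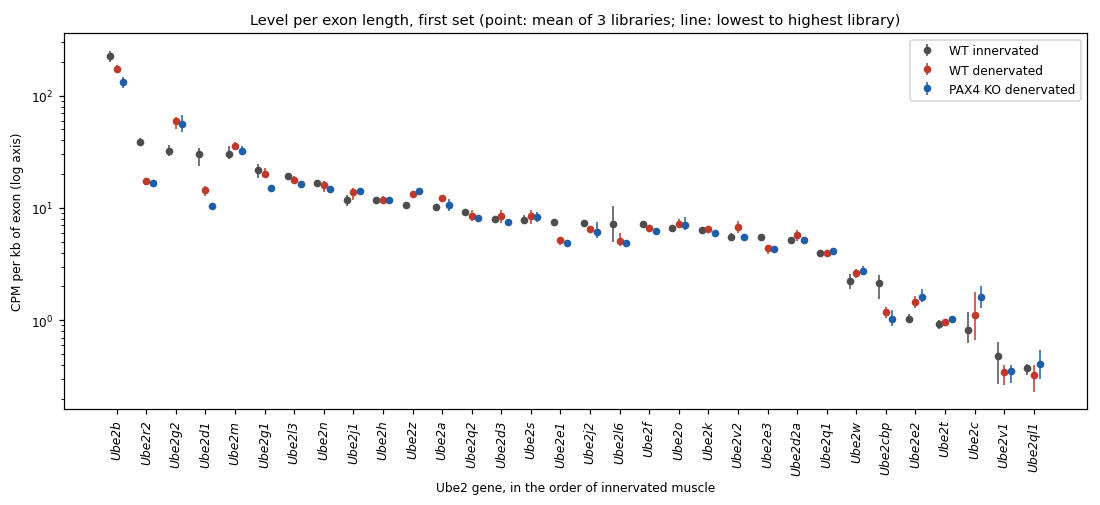
Level of 32 of the Ube2 genes per kb of exon in the first set, on a log axis, with genes in the order of innervated muscle. Points are means of 3 libraries and lines run from the lowest to the highest library. Ube2b is above every other gene in all 3 groups, and the denervated points of Ube2r2 and Ube2d1 lie below the innervated ones while those of Ube2g2 lie above.

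Denervation for 10 days moved single Ube2 genes strongly and left the family without a common direction. With edgeR's quasi-likelihood test and p-values adjusted over 16146 genes (passed at adjusted p under 0.05), 3 of the 33 genes rose (9.09%), where 16.5% of all genes tested rose, and 6 fell (18.2%), where 15.8% of all genes fell. In either direction 32.3% of all genes tested passed. The median log2 fold change was 0.02 over the Ube2 genes and 0.02 over all genes tested. The genes that fell were Ube2r2, Ube2d1, Ube2e1, Ube2e3, Ube2b and Ube2cbp, and those that rose were Ube2g2, Ube2z and Ube2e2. Ube2r2, Ube2d1, Ube2e1 and Ube2g2 passed under all 14 alternative settings tried, and the other 5 did not.

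Among the 6 genes for lysine-48 chains and for degradation from the endoplasmic reticulum, the largest changes went opposite ways. Ube2r2, a close relative of Cdc34 that extends chains with the cullin-RING ligases, stood at 174, 155 and 155 CPM in the innervated libraries and at 72.8, 77.1 and 67.0 CPM in the denervated WT libraries. It fell by 1.16 ± 0.11 on the log2 scale (SE, adjusted p = 0.0001196), to less than any innervated library in all 3 denervated ones. Its level in innervated library 2, which stood apart in Chrng, was that of innervated library 3. Ube2g2, an E2 that serves in clearing proteins from the endoplasmic reticulum, stood at 70.6, 89.1 and 72.5 CPM in innervated and at 122, 157 and 153 CPM in denervated WT muscle. It rose by 0.90 ± 0.16 (adjusted p = 0.002453), with no overlap between the groups. Its exons overlap those of Gm49325, a protein-coding gene on the same strand with 0 CPM in every library of the first set. How reads in the shared exons were assigned is not given. Ube2g1, the paralog that builds lysine-48 chains with cullin 4 ligases, was at 111.8, 83.8 and 105.1 CPM and then at 85.8, 103.3 and 84.5 CPM, groups that overlap. The endoplasmic reticulum membrane enzymes Ube2j1 and Ube2j2 and the chain-building Ube2k had log2 fold changes of 0.23, -0.15 and 0.03 and did not pass.

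The 7 broad chain initiators, which place the first ubiquitin with many RING ligases, held 3 genes that fell (42.9%) and 1 that rose (14.3%). Of all genes tested, 15.8% fell and 16.5% rose. Ube2d1 (UbcH5a) stood at 149, 104 and 147 CPM in innervated and at 65.4, 68.2 and 55.5 CPM in denervated WT muscle, a fall of 1.08 ± 0.15 on the log2 scale (adjusted p = 0.0007457). Of its innervated libraries, library 2 was the lowest. Its paralogs did not pass: Ube2d2a had a log2 fold change of 0.15 ± 0.11 and Ube2d3 of 0.10 ± 0.12. The difference between paralogs was not tested.

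The Ube2e genes split. Ube2e1 stood at 34.1, 32.9 and 33.0 CPM in innervated and at 23.3, 24.6 and 21.0 CPM in denervated WT muscle, a fall of 0.54 ± 0.10 (adjusted p = 0.002722). Its exons overlap those of Nkiras1 on the opposite strand, which averaged 47.5 CPM in innervated and 38.0 CPM in denervated WT muscle. Nkiras1 had a log2 fold change of -0.32 ± 0.14 and did not pass (adjusted p = 0.1025). Whether shared reads entered the fall of Ube2e1 was not tested. Ube2e3 stood at 23.8, 25.3 and 23.3 CPM and then at 19.9, 20.7 and 17.2 CPM, a fall of 0.32 ± 0.10 (adjusted p = 0.03144). Ube2e2 stood at 4.43, 5.29 and 4.50 CPM and then at 6.48, 7.64 and 5.92 CPM, a rise of 0.49 ± 0.17 (adjusted p = 0.04801). None of the 3 Ube2e genes overlapped between the groups, as was so for 13 of the 33 Ube2 genes and 46.6% of all genes tested. Leaving out 1 library ended the call of Ube2e3 in 4 of 6 cases (innervated 1, 2 and 3 and denervated 3, adjusted p up to 0.114). It ended that of Ube2e2 in 5 of 6 (all but innervated 2, up to 0.174). Ube2w, which places ubiquitin on the amino end of proteins, had a log2 fold change of 0.23 ± 0.14 and did not pass.

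Ube2b fell from 536, 423 and 484 CPM in innervated to 349, 396 and 352 CPM in denervated WT muscle. This was -0.40 ± 0.14 on the log2 scale (adjusted p = 0.04952), next to the threshold, and leaving out any single library but innervated 2 ended the call (adjusted p up to 0.173). Its close paralog Ube2a, the other RAD6-type enzyme, stood at 21.8 to 24.5 CPM and then at 27.2 to 28.4 CPM, with a log2 fold change of 0.26 ± 0.11 that did not pass (adjusted p = 0.0855). Both genes had no overlap between the groups, with Ube2b lower and Ube2a higher in every denervated WT library.

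Of the 5 carriers of ubiquitin-like modifiers, 1 rose (20%), where 16.5% of all genes did. Ube2z, which takes ubiquitin or FAT10 from the E1 enzyme Uba6, stood at 43.6, 43.4 and 41.6 CPM and then at 52.1, 55.3 and 52.5 CPM, a rise of 0.31 ± 0.09 (adjusted p = 0.02503) that did not pass without innervated library 1 or 3 or denervated library 2 or 3 (adjusted p up to 0.0958). Ube2m and Ube2f, the carriers of NEDD8, had log2 fold changes of 0.23 and -0.10 and did not pass. Ube2m passed without innervated library 2 (0.37, adjusted p = 0.04153). Ube2l6, the carrier of the interferon-induced modifier ISG15, stood at 21.0, 12.6 and 9.83 CPM in innervated and at 11.9, 9.43 and 9.08 CPM in denervated WT muscle. These groups overlap, and the gene passed only without innervated library 3 (-0.72, adjusted p = 0.03666).

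Ube2cbp, the E2-binding protein, was low at 4.53, 2.77 and 4.32 CPM in innervated muscle and fell to 1.88, 2.07 and 2.35 CPM (log2 fold change -0.88 ± 0.24, adjusted p = 0.02057). Without innervated library 1 or 3 or denervated library 1 or 2 it did not pass (adjusted p up to 0.0757). The K63 group did not pass: Ube2n, which builds lysine-63 chains, stood at 68.4 to 71.3 and 58.9 to 73.7 CPM, and its partner Ube2v2 at 36.7 to 42.4 and 42.5 to 54.3 CPM (log2 fold change 0.30 ± 0.12, adjusted p = 0.0742, and 0.38, adjusted p = 0.04388, without denervated library 3). The cell cycle enzymes Ube2c and Ube2s of the anaphase-promoting complex and the Fanconi pathway enzyme Ube2t had log2 fold changes of 0.48 ± 0.39, 0.12 ± 0.13 and 0.03 ± 0.15. Ube2l3, which serves HECT and RING-between-RING ligases, Ube2h, the E2 of the GID complex, Ube2o, which joins E2 and ligase activity in 1 protein, and Ube2q1, Ube2q2 and Ube2ql1 lay between -0.20 and 0.13 and did not pass.

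**Figure D2:**
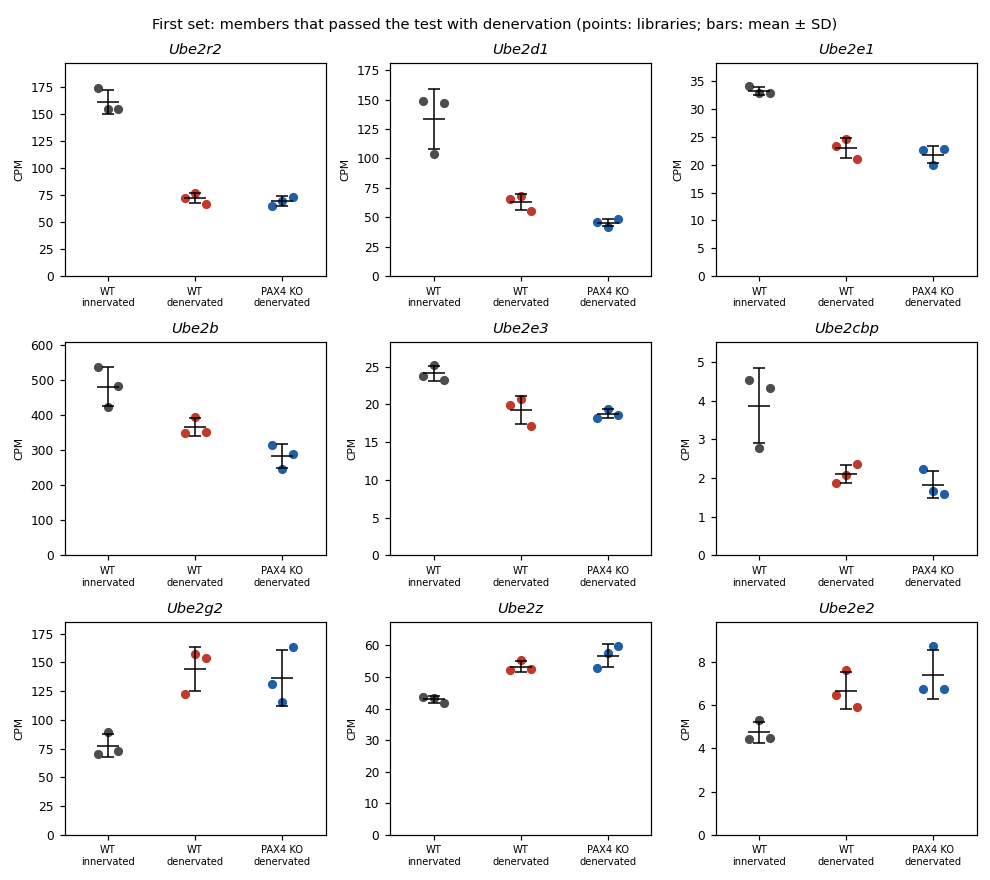
CPM of the 9 Ube2 genes that passed the test with denervation, in the 3 groups of the first set, on linear axes from 0. Points are libraries and bars the mean ± SD of 3 libraries. Ube2r2 is at 155 to 174 CPM in innervated and at 64.7 to 77.1 CPM in all 6 denervated libraries, and Ube2g2 is at 70.6 to 89.1 CPM and at 116 to 163 CPM.

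Other cell types moved with denervation. Of 9 macrophage markers 7 rose, with summed levels of 111 to 348 CPM in innervated and 411 to 842 CPM in denervated WT muscle. Falls passed for all 5 endothelial, for 4 of 5 Schwann cell and for 3 of 4 smooth muscle markers, 1 of 4 fibroblast markers fell, and none of 7 proliferation, 5 erythroid and 6 interferon-response markers passed. Of the 6 muscle markers 1 rose and 2 fell. Of all genes tested, 16.5% rose and 15.8% fell. The part of these cells in the Ube2 changes was not tested. Without innervated library 2 and denervated WT library 1, a choice made with earlier results known, 4 Ube2 genes were higher and 4 lower, and Ube2j1 (0.41, adjusted p = 0.02846) and Ube2m (0.42, adjusted p = 0.0328) passed.

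Single genes of the other steps of the relay also passed with denervation, where 16.5% of all genes rose and 15.8% fell. Of 9 E1 enzymes, 3 rose (33.3%) and none fell. Among them were Uba3, which activates NEDD8 (0.43 ± 0.11, adjusted p = 0.01617), and Atg7, the E1 of autophagy (0.51 ± 0.14, adjusted p = 0.01805). Uba1, the main E1 for ubiquitin, had a log2 fold change of 0.21 ± 0.12 and did not pass. Of 11 modifier genes 1 rose (9.09%), Rps27a, which encodes ubiquitin fused to a ribosomal protein, from 233 to 527 CPM (1.18 ± 0.16, adjusted p = 0.0007207). Of 7 E2-type genes without the Ube2 name, Tsg101, an inactive E2 variant of endosomal sorting, rose (0.50 ± 0.12, adjusted p = 0.009124) and Aktip, another such variant, fell (-0.54 ± 0.10, adjusted p = 0.002908).

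Of 23 E3 ligases tested that are known to use a Ube2 enzyme, 1 rose (4.35%) and 4 fell (17.4%), where 16.5% and 15.8% of all genes did. Maea, of the GID complex, rose by 0.44 ± 0.13 (adjusted p = 0.02861). Rbx1, the RING subunit of the cullin ligases that work with Ube2r2, fell by 0.45 ± 0.09 (adjusted p = 0.005344), and Ubr2, an N-end rule ligase that works with Ube2b, fell by 0.48 ± 0.12 (adjusted p = 0.01149).

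In PAX4 KO muscle against WT muscle, both denervated for 10 days, no Ube2 gene passed the test. Of 16146 genes tested, 0.0186% were higher and 0% lower, so few genes of any kind passed. The smallest adjusted p among the Ube2 genes was 0.3001. At an unadjusted p under 0.05, 4 of the 33 were lower and 0 higher, where 12.9% of all genes tested had such a p in either direction. DESeq2 and limma-voom gave no passing Ube2 gene either. The median log2 fold change was -0.07 over the Ube2 genes and 0.01 over all genes, and 23 of the 33 values were negative.

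The 4 genes at an unadjusted p under 0.05 were Ube2d1, Ube2g1, Ube2v2 and Ube2b. Ube2d1 stood at 46.0, 42.0 and 48.3 CPM in PAX4 KO muscle, all below the 55.5 to 68.2 CPM of denervated WT (-0.47 ± 0.15). Ube2g1 stood at 73.9, 66.9 and 66.7 CPM, all below the 84.5 to 103 CPM of denervated WT (-0.40 ± 0.13, adjusted p = 0.3065). Ube2b was at 315, 247 and 290 CPM against 349 to 396 CPM (-0.37 ± 0.14, adjusted p = 0.3332), and Ube2v2 at 42.2, 36.6 and 38.1 CPM against 42.5 to 54.3 CPM (-0.32 ± 0.12, adjusted p = 0.3247). None of the 4 passed. Their groups did not overlap, which held for 6 of the 33 Ube2 genes in all, Ube2a and Ube2k included, and for 16.9% of all genes tested. Macrophage markers summed to 751 to 1309 CPM in PAX4 KO against 411 to 842 CPM in denervated WT muscle, with none of 9 past the test. Fibroblast markers summed to 2108 to 5427 against 1294 to 1731 CPM, and interferon-response markers to 36.5 to 52.1 against 27.5 to 28.3 CPM. Erythroid markers were lower, at 149 to 259 against 335 to 521 CPM. The sums of the other lists overlapped. No marker of any list passed, and the part of these cells in the Ube2 values was not tested.

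Of the 9 genes that passed with denervation, Ube2d1 and Ube2b were lower in every PAX4 KO library than in any denervated WT library, without passing. The other 7 overlapped. Such separation was not particular to these 2 genes, as 16.9% of all genes tested did not overlap either. Ube2r2 stood at 64.7, 70.0 and 73.7 CPM in PAX4 KO muscle (-0.06 ± 0.11 against denervated WT), Ube2e1 at 22.6, 20.01 and 22.9 CPM (-0.07 ± 0.10) and Ube2g2 at 131, 116 and 163 CPM (-0.08 ± 0.16). Ube2z was at 52.7, 57.7 and 59.8 CPM, Ube2e2 at 6.76, 8.73 and 6.75 CPM, Ube2e3 at 18.3, 19.4 and 18.6 CPM and Ube2cbp at 2.23, 1.67 and 1.59 CPM. Innervated PAX4 KO muscle was not analysed here, so these values do not give the response to denervation within that genotype.

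**Figure D3:**
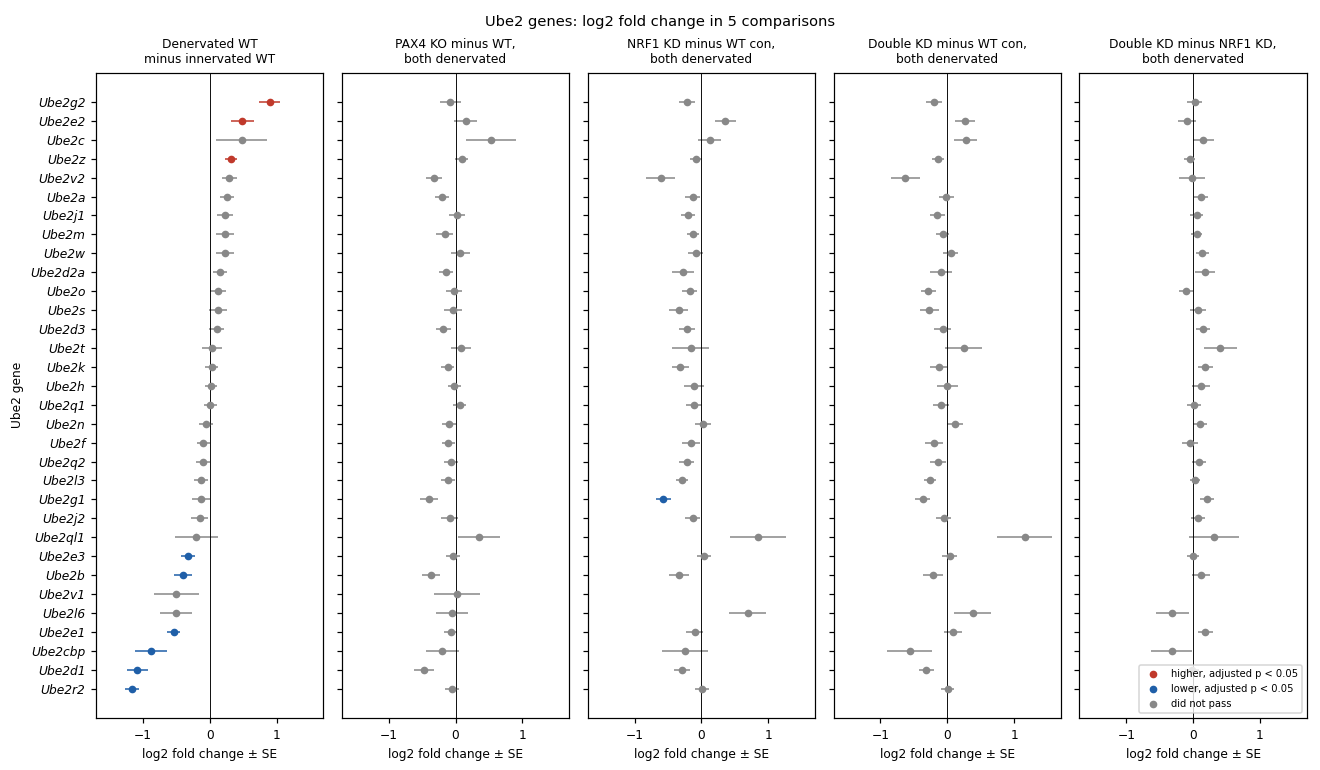
Log2 fold change ± SE of 32 of the Ube2 genes in the 5 comparisons, ordered by the change with denervation; Ube2v1 has no point in the last 3 panels because the second table does not list it. Red and blue points passed at adjusted p under 0.05: 9 with denervation, from -1.16 for Ube2r2 to 0.90 for Ube2g2, and Ube2g1 alone (-0.57) in NRF1 KD.

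In the second set, the libraries labelled NRF1 KD were compared with WT con, all denervated for 10 days, and 1 of 32 Ube2 genes passed: Ube2g1, which was lower. With limma on log2(normalised count + 1) and p-values adjusted over 15624 genes, 3.72% of all genes were lower, 7.58% higher and 11.3% either, and the Ube2 genes stood at 3.12% and 0%. Ube2g1 had 5137 and 5299 normalised counts in WT con and 3933, 3408 and 3224 in NRF1 KD, a fall of 0.57 ± 0.11 on the log2 scale (adjusted p = 0.01146) with no overlap. The call was lost without WT con 2 (adjusted p = 0.0617), WT con 3 (0.0503) or NRF1 KD 3 (0.0515), and the direction was the same in all 11 alternative settings. Ube2g1 is 1 of the 6 genes with the GCGCANGCG pattern printed above. The other 4 such genes measured in this set, Ube2j2, Ube2k, Ube2m and Ube2t, had log2 fold changes of -0.13, -0.31, -0.12 and -0.16 and did not pass. The median was -0.16 over these 5 genes and -0.12 over 20 Ube2 genes with a window and no match, and 4 of the 5 lay within the range of those 20 (-0.34 to 0.85), with Ube2g1 below it.

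At an unadjusted p under 0.05, 7 Ube2 genes were lower in NRF1 KD and 2 higher, where 27.6% of all genes had such a p. Beside Ube2g1 the lower ones were Ube2b, Ube2d1, Ube2k, Ube2l3, Ube2s and Ube2v2. Ube2l3 had 2430 and 2576 normalised counts in WT con and 1968, 2129 and 2051 in NRF1 KD (-0.29 ± 0.09, adjusted p = 0.06601). Ube2d1 had 3027 and 2899 and then 2442, 2642 and 2203 (-0.29 ± 0.12, adjusted p = 0.1349), and Ube2v2 had 287 and 278 and then 204, 194 and 161 (-0.61 ± 0.22, adjusted p = 0.1021). Every NRF1 KD library lay below both controls in these 3 genes, but groups did not overlap in 18 of the 32 Ube2 genes and in 45.9% of all genes tested. Ube2b had 23150 and 19070 and then 19000, 16030 and 15280 normalised counts (-0.33 ± 0.15, adjusted p = 0.1747), where NRF1 KD 1 came close to the lower control. The median over the 32 genes was -0.14, against 0.00 over all genes, and 25 of 32 values were negative.

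The PAX4 KO and NRF1 KD comparisons share no library. Of the 32 genes measured in both, 23 were negative in the first, 25 in the second and 19 in both, and the 4 genes at an unadjusted p under 0.05 in PAX4 KO (Ube2b, Ube2d1, Ube2g1 and Ube2v2) were also among the 7 in NRF1 KD. This overlap was not tested. How many of all genes were negative in both comparisons was not counted, so no shared response is read from these counts. Only Ube2g1 in NRF1 KD passed after adjustment over all genes. Ube2r2, the gene with the largest change with denervation, was nearly level in the second set, at 3714 and 3180 normalised counts in WT con, 3562, 3547 and 3253 in NRF1 KD and 3431, 3254 and 3675 in double KD. Ube2g2 stood at 6209 and 5835, at 5278, 5773 and 4546, and at 4840, 5086 and 5894 (-0.22 ± 0.12 in NRF1 KD and -0.20 ± 0.12 in double KD). For Ube2e1 the log2 fold changes were -0.10 ± 0.13 and 0.08 ± 0.13.

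**Figure D4:**
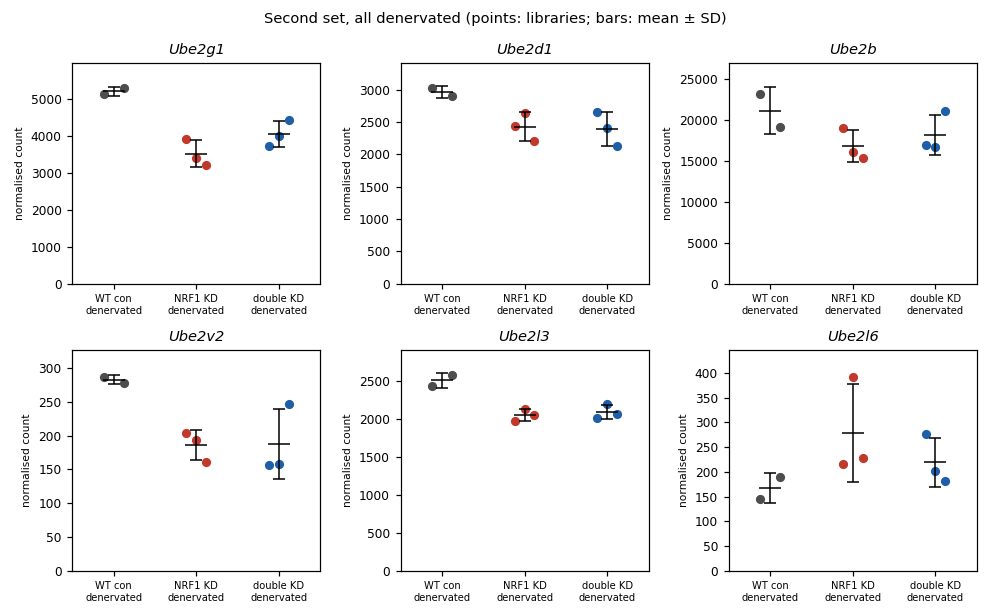
Normalised counts of 6 Ube2 genes in the 3 groups of the second set, all denervated for 10 days, on linear axes from 0. Points are libraries and bars the mean ± SD of 2 (WT con) or 3 libraries. Ube2g1 is at 5137 and 5299 in WT con and at 3224 to 3933 in NRF1 KD, and Ube2l6 spreads from 216 to 393 in NRF1 KD.

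The 2 Ube2 genes higher at an unadjusted p under 0.05 in NRF1 KD were Ube2l6 and Ube2e2. Ube2l6 had 146 and 189 normalised counts in WT con and 216, 393 and 228 in NRF1 KD (0.69 ± 0.28, adjusted p = 0.1355). The modifier that it carries, Isg15, rose from 26.7 to 124 normalised counts on average (2.13 ± 0.31, adjusted p = 0.004156), and its E1, Uba7, did not pass (log2 fold change 0.36, adjusted p = 0.4053). Of 6 interferon-response markers 5 rose, with sums of 632 to 681 in WT con and 1380 to 1823 in NRF1 KD. Of 9 macrophage markers 9 rose, with sums of 7584 to 10090 and 17550 to 35650, and 4 of 7 proliferation and 2 of 4 fibroblast markers rose. Of all genes tested, 7.58% were higher. The part of these markers' cells and of the interferon response in the values of Ube2l6 was not tested. Ube2e2 had 331 and 290 and then 425, 410 and 359 normalised counts (0.36 ± 0.15, adjusted p = 0.1611).

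In the double KD libraries against WT con, none of the 32 Ube2 genes passed by limma or by edgeR on recovered reads, where 2.39% of all genes were higher, 1.7% lower and 4.08% either. At an unadjusted p under 0.05, 5 were lower (Ube2d1, Ube2g1, Ube2l3, Ube2o and Ube2v2) and 1 higher (Ube2ql1), where 21.4% of all genes had such a p. Ube2g1 had 3735, 4001 and 4436 normalised counts, against 5137 and 5299 in WT con (-0.37 ± 0.11, adjusted p = 0.09195, the smallest of the family). Ube2v2 had 157, 157 and 247 (-0.63 ± 0.22, adjusted p = 0.1302), and passed only without double KD 3 (-0.84, adjusted p = 0.04351), the library nearest to the controls. Ube2ql1 was near the detection limit, at 8.71 and 16.5 in WT con and at 25.3, 33.4 and 26.1 normalised counts (1.16 ± 0.41, adjusted p = 0.1373). This comparison shares its controls with that of NRF1 KD.

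Between the libraries labelled double KD and those labelled NRF1 KD, no Ube2 gene passed. Nrf1 itself stood at 427 to 454 normalised counts in the former and at 476 to 524 in the latter, and no value of Pax4 was analysed in this set, so the labels of this contrast were not checked either. Of all genes, 0.0768% were higher, 0.0576% lower and 0.134% either. No Ube2 gene had an unadjusted p under 0.05, where 11.2% of all genes did, and edgeR on recovered reads called none. The smallest adjusted p was 0.4725, for Ube2g1 (0.21 ± 0.10). The values ran from -0.32 for Ube2cbp to 0.41 for Ube2t, with a median of 0.06 against 0.01 over all genes.

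In the lists around the family, no E1 passed in any of these 4 comparisons. Isg15 was higher in double KD as well (1.33 ± 0.31, adjusted p = 0.04383), and Ufc1, the E2 of UFM1, was lower in NRF1 KD (-0.34 ± 0.09, adjusted p = 0.04151). Of 21 E3 ligases tested in the second set, Trim63, which works with Ube2d enzymes, was lower in NRF1 KD (-0.77 ± 0.16, adjusted p = 0.01382) and in double KD (-1.05 ± 0.16, adjusted p = 0.00952). Fbxo32, an F-box protein of a cullin ligase, was lower in double KD (-0.61 ± 0.12, adjusted p = 0.024). Of all genes, 3.72% were lower in NRF1 KD and 1.7% in double KD.

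Some Ube2 genes stood at very different levels in the 2 tables, also in plain CPM, so levels were compared and tested only within a table. The counting rules for reads in overlapping exons are not given in the sources, and whether they differed between the tables was not tested. In plain CPM of denervated WT muscle, 3 of 32 genes differed by 4-fold or more between the tables, where 5.3% of 15278 genes did. Ube2c stood at 3.04 CPM in the first table and at 119 CPM in the second, and its exons overlap those of Tnnc2, the fast troponin C gene, on the opposite strand. Tnnc2 stood at 2.95 to 15.8 CPM over the first set and at a mean of 229800 normalised counts in WT con of the second. In the second set Ube2c held between 1.33% and 1.86% of the Tnnc2 value in all 8 libraries, and its value there was not read as a level of Ube2c; whether it holds reads of Tnnc2 was not tested. Ube2d2a stood at 68.4 against 9.12 CPM and Ube2v2 at 50.2 against 10.1 CPM, and Ube2n and Ube2s were also more than 2-fold lower in the second table. Their tests rest on fewer reads there. Ube2e1, whose exons overlap those of Nkiras1 on the opposite strand, stood at 23.7 against 76.6 CPM, so the levels of Ube2c and Ube2e1 in either table are uncertain.

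**Figure D5:**
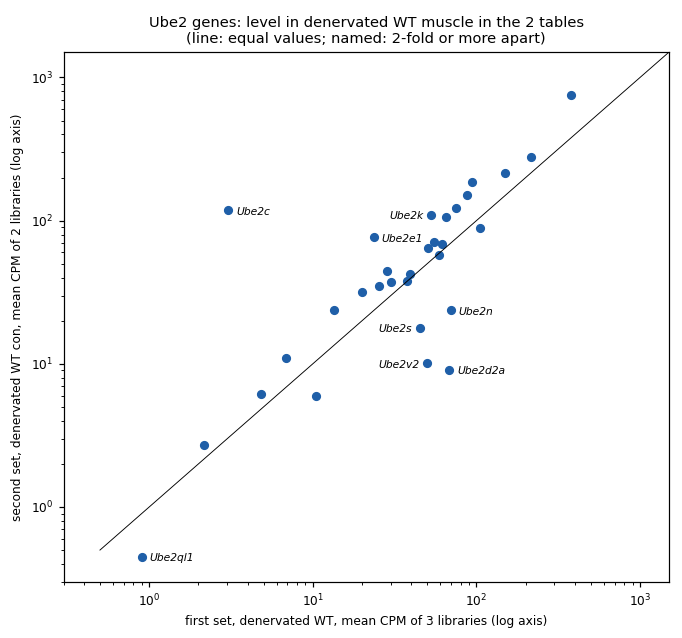
Mean CPM of 31 of the Ube2 genes in denervated WT muscle in the first table (3 libraries) and in the second (2 libraries), both axes log. The line marks equal values and the plotted genes 2-fold or more apart are named. Ube2c is 39.0-fold higher in the second table, and Ube2d2a and Ube2v2 are the farthest below the line.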

How the data were processed

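RNA was sequenced from the 17 libraries described above; 6 further samples of the 23 in the labels are not analysed here. The labels' protocols give TRIzol extraction, 1 µg of RNA and a SMARTER mRNA-Seq kit. The submitters' processing notes name the builds GRCm38 and mm10; which aligner, counter, annotation and strand setting were used is not given in the sources used here. The first set is a deposited table of raw counts per gene. The second was deposited as log2 values, beside the authors' mean signal, fold changes, test score and p-values. The form of these log2 values is that of DESeq2's variance-stabilised scale: inverting that scale gave normalised counts whose mean matched the deposited mean signal. Dividing by the step of 1 read gave whole reads for 100% of values (tolerance 0.05).

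Counts were tested with edgeR 4.0.16 (TMM, quasi-likelihood, 3 groups in 1 fit, filterByExpr), and log2(normalised count + 1) with limma 3.58.1 (trend), each with Benjamini-Hochberg adjustment over the whole table. CPM uses TMM-scaled library sizes except where called plain. In the first set, the SE of a log2 fold change was worked back from the test, as its absolute value over the square root of F. In the second set the SE came from the limma fit. DESeq2 1.42.0, limma-voom, other filters, pseudocounts and left-out libraries were alternatives, and edgeR was also run on the recovered reads. The fits were tested on simulated data. Any 2 libraries of a group differed by more than read sampling (chi-square of their counts over its degrees of freedom, 21.8 to 84.4). This check cannot tell separate animals from separate preparations of the same RNA. Library numbers of the first set follow the column numbers, and those of the second the labels. The Ube2 genes, lists and markers were chosen with earlier results of these data known. By rule, every Ube2 gene could be named, with values in each library for those that passed in any comparison and for Ube2b; of each list, up to 3 genes per direction by smallest adjusted p. A few genes of the family and lists enter the counts but are not reported here by name or plotted. Deposited values of the authors' own tests are cited only where named.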

Additional observations from a re-analysis of the deposited data

How the results depend on the processing

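For denervation, the number of Ube2 genes higher was 3, became 1 with no filter on low counts and 5 when genes under 5 CPM on average were left out, and ran from 1 to 4 over the fits without 1 library. The number lower was 6 and ran from 3 to 5 without 1 library. For NRF1 KD, the number lower was 1 and ran from 0 to 1 without 1 library. For double KD it was 0 and ran from 0 to 1. The counts for PAX4 KO and for double KD against NRF1 KD stayed at 0 in every alternative run. No gene that passed in any setting changed sign. Over these genes and the alternatives for denervation, 151 values kept their side of the threshold, 37 lost the call and 7 gained it; the cause was not tested.

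Groups share replicate numbers; in the first set the innervated and denervated WT columns carry the same numbers, which the labels do not explain. Same-numbered libraries deviated together with r = 0.23, 0.03 and 0.27 for denervation, each library correlating best with its own number. For NRF1 KD r was 0.03 and 0.14. For double KD it was -0.06 and -0.22 against WT con, and -0.21, -0.06 and -0.17 against NRF1 KD. In both of these, no double KD library correlated best with its own number. Whether the numbers mark pairs is not known, and the main tests did not use them. For denervation, the replicate number was fitted as a block on the 2 groups compared only. With it, 2 Ube2 genes were higher and 4 lower, with the calls of Ube2z (adjusted p = 0.0618), Ube2b (0.106) and Ube2e3 (0.0696) lost. The fit on these 2 groups without a block also lost Ube2b (0.0597) and Ube2e3 (0.0623), as well as Ube2e2 (0.0523), and kept Ube2z (0.0333). With the block in the second set, Ube2g1 no longer passed in NRF1 KD (-0.58, adjusted p = 0.0593), which left 0 genes lower.

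With 2 or 3 libraries per group, the low genes Ube2ql1, Ube2v1, Ube2c and Ube2cbp, at about 1 to 5 CPM in the first set, had the largest SE with denervation, up to 0.39, and Ube2ql1 had an SE of 0.41 in NRF1 KD and double KD.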

Other observations

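The authors' deposited table of their own denervation test called 10 of 32 Ube2 genes, and 7 of these were among the 9 called here (Ube2b, Ube2cbp, Ube2d1, Ube2e1, Ube2g2, Ube2r2 and Ube2z). The 3 others were Ube2c, Ube2l3 and Ube2n, with adjusted p of 1.95e-09, 0.018 and 0.000926 in the authors' deposited table, against 0.3766, 0.3485 and 0.7302 in the counts tested here. Ube2e2 and Ube2e3 passed here and not there. How many of all genes the authors' denervation test called was not counted, and 32.3% of all genes passed here. For NRF1 KD the authors' deposited table called 1 Ube2 gene, Ube2g1, which was lower there too, and for double KD none of 32.

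Ube2d-ps, a gene that shares the Ube2d name and is annotated as a pseudogene, stood at 60.9, 52.4 and 65.7 CPM in innervated and at 35.1, 30.2 and 37.4 CPM in denervated WT muscle, a fall of 0.80 ± 0.12 on the log2 scale (adjusted p = 0.00122, edgeR). Near-identical copies can share reads, so the split of reads between it and the Ube2d genes is uncertain. Tmem189, the neighbour that forms read-through transcripts with Ube2v1, rose from 13.5 ± 1.13 to 22.7 ± 2.24 CPM (0.75 ± 0.12, adjusted p = 0.001774), while Ube2v1 was at 0.739, 1.73 and 1.43 CPM and then at 0.722, 1.09 and 0.994 CPM. The annotated read-through gene Gm20431 had 0 CPM in all 9 libraries, which allows up to 3 counts in each. Rpl28, which overlaps Ube2s, rose by 0.86 ± 0.20 (adjusted p = 0.009989) while Ube2s stood at 37.0 to 44.2 and 37.3 to 49.8 CPM.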
